A study of Homo sapiens with 4 samples.

Results

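The regions described here lay within 1 kb of the start of an annotated transcript of a protein-coding gene, the stretch usually called the core promoter. They were taken from a table of 29302 ChIP-seq regions by the authors' own annotation, as every row annotated as a promoter within 1 kb whose gene type was protein-coding. This gave 1631 regions at 1526 genes, and the 27671 other regions served for comparison. The cells were T98G, an established human glioblastoma line, carrying either an empty vector or an LGP2 overexpression construct. Each condition had 1 ChIP library and 1 input library, 4 samples in all, and no replicates. The treatment field of the labels names LGP2 overexpression for every sample, vector samples included, so the groups rest on the genotype field and the titles. The deposited densities name a condition but not ChIP or input, and were taken as those of the 2 ChIP libraries. The input libraries were not analysed here. LGP2 is the product of DHX58, a helicase that binds viral RNA in the cytosol and belongs with RIG-I and MDA5. Which antibody was used with LGP2 is not given, so reads are described without a target.

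Transcription by RNA polymerase II starts within the core promoter, where general transcription factors assemble, and active promoters of many coding genes are GC-rich, depleted of nucleosomes and flanked by acetylated or otherwise acylated histones. Lysine crotonylation, the mark that the study followed in these cells, is one such acylation and is known from active promoters and enhancers. A coding gene usually has several annotated transcripts. Some begin at the main start of the gene, while others are short or retain an intron and begin far inside it. A region can therefore carry a core promoter annotation without lying at the main promoter of its gene.

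The label held in this restricted sense only. RefSeq gives 1 outer start per gene, and 1620 of the 1631 regions could be measured from it. The centre of the region lay within 1 kb of that start for 333 regions (20.6%, 95% Clopper-Pearson interval 18.6 to 22.6). For 1212 regions (74.8% [72.6 to 76.9]) the centre lay inside the gene more than 1 kb past the start, for 71 it lay more than 1 kb before it, and for 4 past the far end of the gene. Within 10 kb of the start lay 766 regions (47.3%). The type of transcript separated these cases. Of 752 regions annotated to a protein-coding transcript, 36.2% [32.7 to 39.7] were within 1 kb of the gene start, against 4.0% [2.3 to 6.3] of 427 regions at retained-intron transcripts and 7.9% [5.2 to 11.3] of 330 at processed transcripts, which have no open reading frame. In all, 755 members were annotated to protein-coding transcripts, 430 to retained-intron, 335 to processed and 108 to nonsense-mediated decay transcripts. They are therefore called start-proximal regions here. These intervals, like all others below, cover counting error only.

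RefSeq promoter sequences, from 250 bases before to 50 bases after the gene start (GRCh38.p14), were matched to 1305 of the 1631 regions, and 76 regions (5.8% [4.6 to 7.2]) overlapped them. Of the 34 regions named below for their size, depth or shared call, 24 had such a sequence and 0 overlapped it. The promoters printed are therefore the 6 of these 76 with at least 9 reads over both libraries, and they were chosen after their values were seen. They show the promoters overlapped by the deepest of these 76 regions, while regions near gene starts outside the matched sequences, such as MUC5B below, were deeper. At CFAP221 and KCNC2 the region overlapped the full promoter sequence but lay outside the stretch shown. Each runs 5′ to 3′ from 120 bases before the start through the first 30 transcribed bases. Capitals mark a complete match to a CCAAT box (CCAAT) or a GC box (GGGCGG) on either strand. Promoters without capitals had no such match in the stretch shown.
CFAP221: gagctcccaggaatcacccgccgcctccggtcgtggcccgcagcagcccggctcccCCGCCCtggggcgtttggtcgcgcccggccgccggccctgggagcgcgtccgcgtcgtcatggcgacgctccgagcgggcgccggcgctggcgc
KCNC2: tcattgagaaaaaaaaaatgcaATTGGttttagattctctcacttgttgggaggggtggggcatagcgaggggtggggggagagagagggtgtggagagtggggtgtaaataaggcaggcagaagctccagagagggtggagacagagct
KRT85: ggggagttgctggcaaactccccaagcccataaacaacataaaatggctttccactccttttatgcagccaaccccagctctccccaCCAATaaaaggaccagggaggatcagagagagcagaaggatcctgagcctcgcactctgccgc
SLC32A1: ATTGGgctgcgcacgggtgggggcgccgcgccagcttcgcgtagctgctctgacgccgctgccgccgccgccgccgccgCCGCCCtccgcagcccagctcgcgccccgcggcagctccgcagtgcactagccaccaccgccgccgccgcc
TNFRSF6B: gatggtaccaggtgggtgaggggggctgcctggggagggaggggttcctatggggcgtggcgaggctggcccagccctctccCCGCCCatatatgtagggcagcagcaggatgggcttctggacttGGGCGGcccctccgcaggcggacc
TYR: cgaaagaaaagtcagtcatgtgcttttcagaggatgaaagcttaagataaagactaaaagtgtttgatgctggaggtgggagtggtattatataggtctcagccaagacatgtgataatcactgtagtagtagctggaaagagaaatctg

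The 6 promoters differed in composition. Over the full 300 bases, the GC content was 74% at SLC32A1, the vesicular GABA transporter, and 70% at CFAP221, a cilium-associated protein. It was 69% at TNFRSF6B, a decoy receptor for Fas ligand, and 49% at KRT85, a hair keratin. The lowest values were 46.3% at KCNC2, a voltage-gated potassium channel, and 37% at TYR, the tyrosinase of melanocytes. Most of these genes have their main roles in hair, pigment cells or neurons. KCNC2 was called only with the vector, with 2 LGP2 and 7 vector reads. The other 5 were called only with LGP2: KRT85, SLC32A1 and TYR had 6 LGP2 and 3 vector reads each, and CFAP221 and TNFRSF6B had 5 and 4. The promoter of CFAP221 lies at chr2:119544329-119544478 on the plus strand, KCNC2 at chr12:75209810-75209959 on the minus strand, and KRT85 at chr12:52367452-52367601 on the minus strand. SLC32A1 lies at chr20:38724366-38724515, TNFRSF6B at chr20:63696532-63696681 and TYR at chr11:89177755-89177904, all on the plus strand.

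Across the 76 regions on a RefSeq promoter, the total over both libraries ran from 2 to 9 reads, with a median of 5. The median GC content of these promoters was 60.8%, against 62.7% over all 15842 coding promoters, and the median number of CpG dinucleotides was 15 against 22. A GC box was present in 40 of 76 (52.6% [40.8 to 64.2]) and in 58.5% of all promoters of that length. A CCAAT box was present in 27 of 76 (35.5% [24.9 to 47.3]) and in 36.4% of all. A TATA box (TATAAA) was present in 10 of 76 (13.2% [6.5 to 22.9]) against 9.6%, and an ETS site (CCGGAAG) in 10 of 76 against 14.2%. All 4 intervals included the share over all promoters. When coding promoters were split into 4 groups of like size by GC content, 0.62% [0.40 to 0.91] of the most AT-rich group and 0.42% [0.24 to 0.68] of the most GC-rich group carried a region, with overlapping intervals. GC-rich promoters were thus not detectably richer in called regions.

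No build-up of regions at gene starts was visible either. Around the 15842 RefSeq coding starts, regions called only with LGP2 numbered 46.3 per 500 bp bin [39.8 to 53.4] within 1 kb and 47.3 [42.6 to 52.3] at 3 to 5 kb. Regions called only with the vector numbered 29.3 [24.2 to 35.1] and 30.6 [26.9 to 34.7]. Over all bins within 5 kb, the counts ran from 30 to 66 for LGP2 and from 20 to 48 for the vector, with neither the highest nor the lowest bin of the vector within 1 kb. The bin from 0 to 500 bp into the gene held 59 LGP2 regions, fewer than the 66 in the bin from 3500 to 4000 bp. Within 1 kb the sides of the start differed for LGP2. The bins before it held 30 [20.2 to 42.8], the lowest count, and 41 [29.4 to 55.6] regions. Those after it held 59 [44.9 to 76.1] and 55 [41.4 to 71.6]. For the vector the same bins held 28, 27, 31 and 31.

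**Figure D1:**
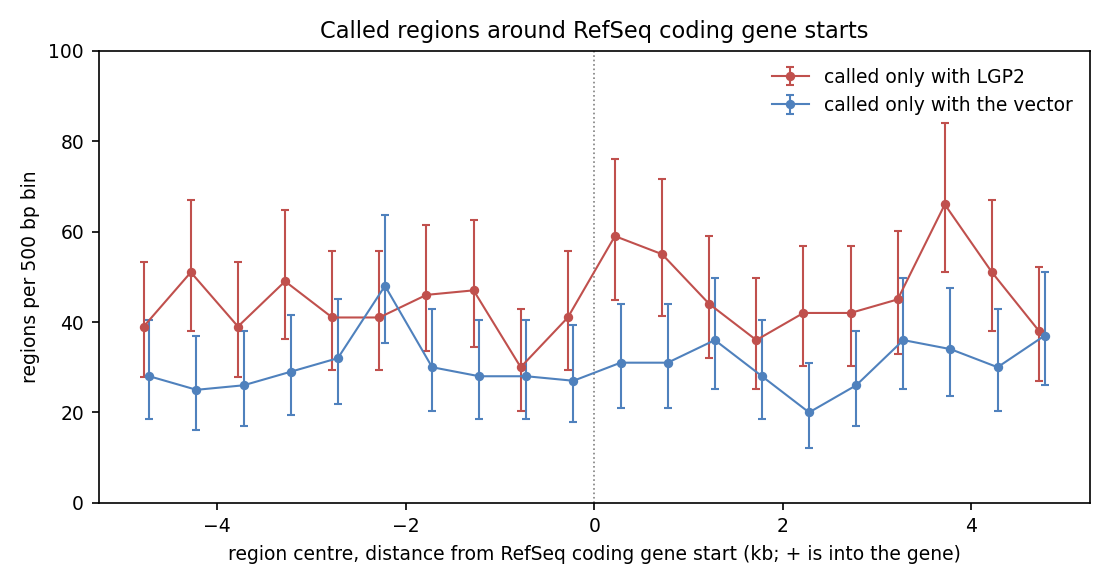
Regions of any annotation per 500 bp bin (vertical axis) by the distance of the region centre from a RefSeq coding gene start (horizontal axis, kb), with 95% Poisson intervals. Regions called only with LGP2 ran from 30 to 66 per bin and those called only with the vector from 20 to 48. Neither maximum lay within 1 kb of the start, and within 1 kb the LGP2 counts were lower before the start than after it.

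The reads behind each region were few. The deposited densities gave whole reads for both libraries in 100% of regions, in a window inferred to be 2 kb. Start-proximal regions had a median of 5 reads over both libraries together and ran from 2 to 18, and the other regions had the same median. The median width was 313 bp, from 244 to 1065 bp. Regions of this depth give wide intervals, so single regions are described by their reads and not ranked beyond them.

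Calls were divided unevenly between the libraries. Of the 1631 regions, 1014 were called only with LGP2 (62.2% [59.8 to 64.5]), 613 only with the vector (37.6% [35.2 to 40.0]) and 4 in both. Over all 29302 regions the LGP2-only calls made up 54.9%, the vector-only calls 44.9% and the shared calls 0.27%. The LGP2-only share of the 27671 other regions was 54.4% [53.8 to 55.0], below the interval of the start-proximal regions. Regions 1 to 3 kb from a coding start were close to the latter, at 60.1% [57.8 to 62.4] of 1788. Regions within 1 kb of a long non-coding RNA start were at 55.3% [51.1 to 59.5] of 557. How the inputs entered region calling is not given, so the number of calls may not be comparable between the libraries.

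Read the other way, start-proximal regions made up 6.31% [5.94 to 6.69] of the 16076 regions called only with LGP2 and 4.66% [4.31 to 5.04] of the 13147 called only with the vector. No dependence on nearness to the gene start was detectable. The LGP2-only share was 61.3% [55.8 to 66.5] for the 333 regions within 1 kb of the RefSeq start and 62.5% [59.8 to 65.1] for the 1287 farther away. It was 59.7% [56.1 to 63.3] at protein-coding, 64.4% [59.7 to 68.9] at retained-intron and 64.2% [58.8 to 69.3] at processed transcripts. Those intervals overlapped.

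Chromosomes differed. The LGP2-only share of start-proximal regions was highest on chromosome 20, with 40 regions called only with LGP2 and 7 only with the vector (85.1% [71.7 to 93.8]), and the other regions of chromosome 20 were also high (76.4% [73.1 to 79.5]). On chromosome 3 it was 72.4% [63.3 to 80.3] against 55.4% [53.3 to 57.5] of other regions. Chromosome 17 stood at 71.8% [62.7 to 79.7] against 60.5% [57.3 to 63.6], and chromosome 8 at 71.7% [56.5 to 84.0] against 55.0% [52.4 to 57.6]. Chromosome 9 was the lowest among chromosomes with at least 20 start-proximal regions, at 47.2% [33.3 to 61.4] against 52.4%. The start-proximal share was above that of the other regions in 18 of 21 such chromosomes. Start-proximal regions sat more often on chromosomes with a high LGP2-only share, and the other regions of the same chromosomes, weighted to the same make-up, gave 56.2%. Copy number and library background per chromosome were not measured, and their part was not tested.

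**Figure D2:**
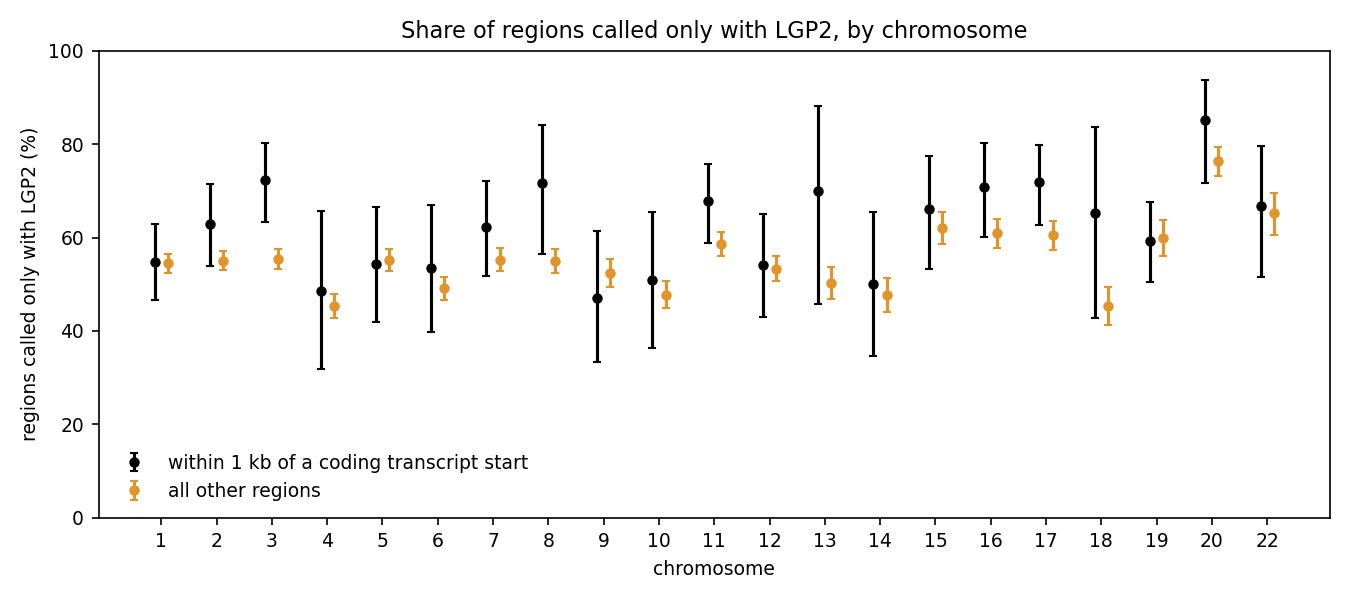
Share of regions called only with LGP2 (vertical axis, %) on each chromosome with at least 20 start-proximal regions, for these regions and for all other regions, with 95% Clopper-Pearson intervals. Chromosome 20 was high in both, and on chromosome 3 the intervals of start-proximal and other regions did not overlap.

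Because a region was chosen for high reads in the library that called it, the reads of the library that did not call it are given here. They are not free of selection, because regions that both libraries called are left out of these sets. At the 1014 regions called only with LGP2, the vector library had 1.78 reads per region [1.69 to 1.86]. At the other LGP2-only regions it had 1.58 [1.56 to 1.60], and at those of the same chromosomes, weighted alike, 1.63. At the 613 regions called only with the vector, the LGP2 library had 1.17 reads per region [1.09 to 1.26], against 1.14 [1.12 to 1.16] at the other vector-only regions and 1.19 after weighting by chromosome. Vector reads were thus higher at start-proximal regions than at the rest, and LGP2 reads were not distinguishable from the rest. Among regions with at least 5 reads in the calling library, the vector reads were 2.01 [1.84 to 2.19] against 1.82 [1.77 to 1.87], with overlapping intervals. By nearness to gene starts, with overlapping intervals, vector reads were 1.65 [1.48 to 1.84] within 1 kb of the RefSeq start and 1.80 [1.71 to 1.90] farther away. At flanks 1 to 3 kb from coding starts they were 1.70 [1.62 to 1.78], and at long non-coding RNA starts 1.69 [1.54 to 1.84], both overlapping 1.78.

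The split between called and not called was narrow in reads. Of the 1014 LGP2-only regions, 188 (18.5% [16.2 to 21.1]) had 0 vector reads and 192 (18.9% [16.6 to 21.5]) had at least as many vector as LGP2 reads. Among LGP2-only regions of the whole series these shares were 21.7% and 17.4%. Of the 613 vector-only regions, 199 (32.5% [28.8 to 36.3]) had 0 LGP2 reads and 49 (8.0% [6.0 to 10.4]) had at least as many LGP2 as vector reads. Among vector-only regions of the whole series they were 33.6% and 8.0%, so the narrow split was not particular to start-proximal regions. A call in 1 library therefore did not always mean fewer reads in the other. These reads were counted in the inferred 2 kb window, which is wider than the called region. Which library had more reads within the called region itself is not known. RBPMS2, an RNA-binding protein of smooth muscle, had adjoining regions at chr15:64761033-64761284, called only with the vector, and at chr15:64761294-64761635, called only with LGP2, with 3 LGP2 and 5 vector reads given for each. The windows of these regions overlap, so their reads are largely the same.

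**Figure D3:**
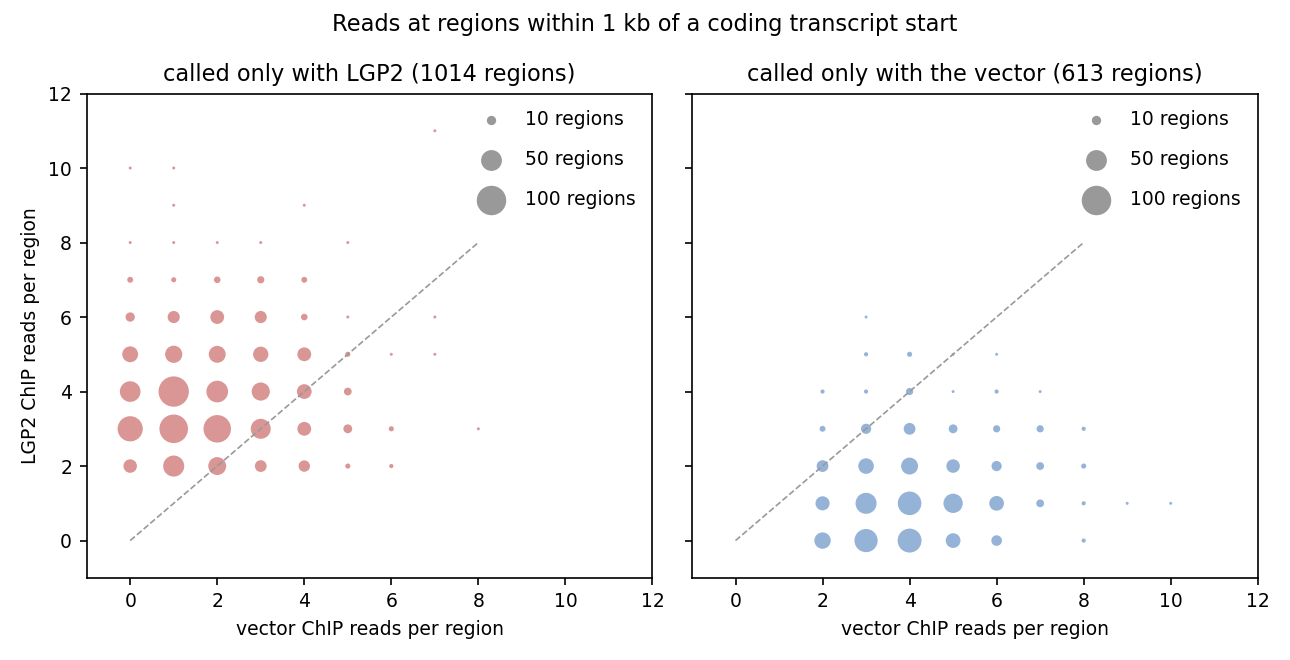
LGP2 ChIP reads (vertical axis) against vector ChIP reads (horizontal axis) for the 1014 regions called only with LGP2 and the 613 called only with the vector. Circle area is the number of regions, the dashed line marks equal reads, and 192 LGP2-only and 49 vector-only regions lie on it or on the far side.

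By normalized density, 514 start-proximal regions (31.5%) were at least 2-fold higher with LGP2 and 366 (22.4%) at least 2-fold lower. The background over all regions was 29.5% and 25.2%. The share higher with LGP2, 31.5% [29.26 to 33.83], had an interval overlapping that of the other regions, 29.4% [28.88 to 29.96]. The share lower with LGP2, 22.4% [20.44 to 24.54], lay below that of the other regions, 25.4% [24.86 to 25.89]. These counts, and the ratios below, use the reads of the library that called each region. They therefore restate in part the division of calls, LGP2-only for 62.2% of start-proximal and 54.4% of other regions. A shift in density apart from the calls was not tested. Of the 514 regions, 188 had 0 vector reads, and of the 366, 199 had 0 LGP2 reads. With 0 reads replaced by the floor of 3 reads that a count of 0 allows, 342 higher and 169 lower regions remained past 2-fold (21.0% and 10.4%, against 18.3% and 10.6% of all regions). The median log2 density ratio, LGP2 over vector, was 0.43 for start-proximal regions and 0.15 for the others, or 0.15 and 0.10 with regions at 0 held at the floor. The authors' normalization itself put the median of all regions 0.15 above that of the unscaled reads.

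Regions were also placed around the transcript start that gave them their annotation. They overlapped it in 351 cases (21.5% [19.5 to 23.6]), lay upstream in 580 and downstream in 700. An even spread of regions of these widths over the allowed distance would give 14.3% overlapping. Within 250 bp of the start lay 722 regions (44.3% [41.8 to 46.7]), against 35.7% for an even spread. The nearest start was assigned to each region, which also places regions near starts where several starts lie close together, and the part of this was not tested. Regions at protein-coding transcripts overlapped the start more often (25.3% [22.2 to 28.6] of 755) than those at other transcripts (18.3% [15.8 to 21.0] of 876). Regions called only with LGP2 and only with the vector had overlapping intervals, at 22.3% and 20.2%, as were long non-coding RNA starts at 18.7% [15.5 to 22.2]. At the edge of the annotation, the 139 regions 901 to 1000 bp from a start had medians of 3 LGP2 and 2 vector reads, and so did the 108 regions 1001 to 1100 bp away, just outside it.

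**Figure D4:**
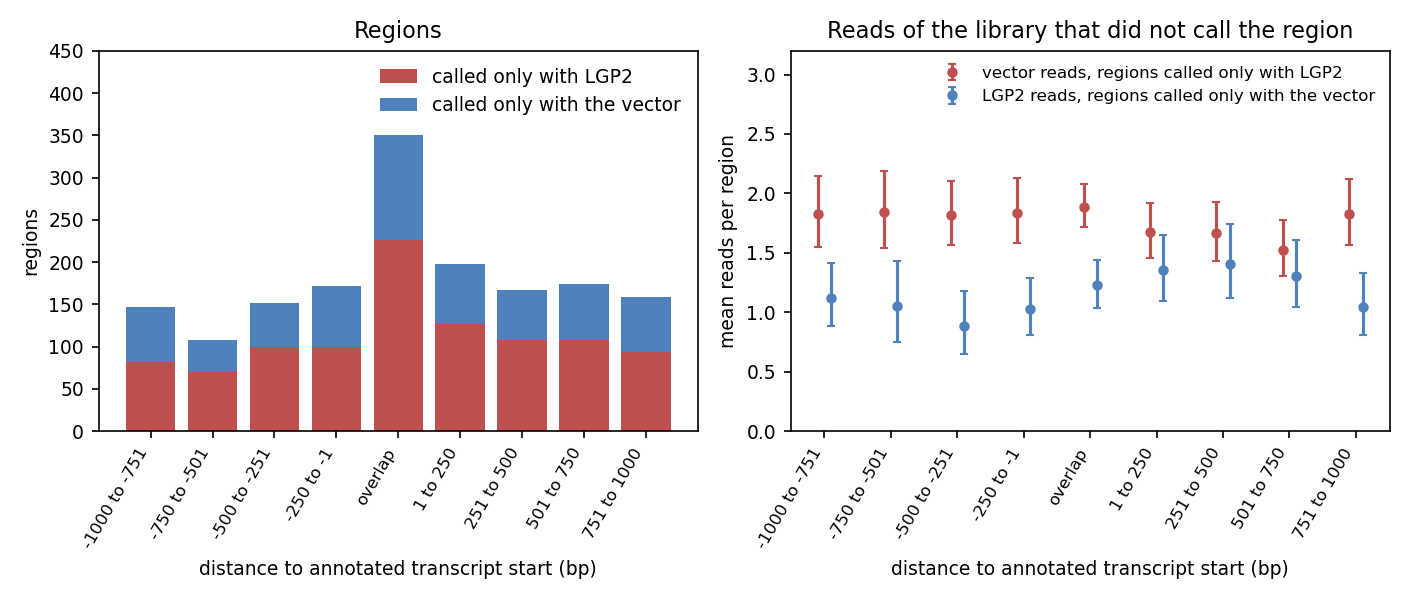
Left, start-proximal regions (vertical axis) by distance of the nearest edge from the annotated transcript start (horizontal axis, bp), stacked by the library that called them. Right, mean reads of the library that did not call the region over the same bins, with 95% Poisson intervals: 351 regions overlapped the start, and the vector reads there averaged 1.89 [1.71 to 2.08], with overlapping intervals in the other bins.

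The largest LGP2-only regions had no vector read, so their ratios are given on unscaled reads against the floor of 3 reads per library. Each such ratio is a lower bound for the count of 0 only, since the reads of the calling library are taken as exact. These regions were picked as extremes. The Poisson intervals of the libraries overlapped at all named here but ITIH4, with LGP2 [4.80 to 18.4] and vector [0 to 3.69]. ITIH4, a heavy chain of the inter-alpha-trypsin inhibitor family made mainly in liver, had 10 LGP2 reads and 0 vector reads at chr3:52824956-52826020, at least 3.33-fold higher. The LGP2 density there was 5.77 and the vector density 0.48. HEXA, the lysosomal hexosaminidase subunit lost in Tay-Sachs disease, had 8 and 0 reads at chr15:72345360-72345783, at least 2.67-fold higher. Both starts belonged to retained-intron transcripts, and the centres lay 5184 and 30443 bp into the genes. The next 4 had 7 and 0 reads, at least 2.33-fold higher: ADGRL1, an adhesion G protein-coupled receptor of synapses, GNAO1, the alpha subunit of the G protein Go, IGDCC3, of the immunoglobulin superfamily, and MRPL38, of the mitochondrial ribosome. CRYGN, a crystallin, EML6, a microtubule-associated protein, ENGASE, which cleaves N-glycans, and OR2V1, an olfactory receptor, had 6 and 0 reads and were the first in alphabetical order of 10 such regions. None of the 10 regions with 6 and 0 reads overlapped a matched RefSeq promoter sequence, and the nearest lay 658 bp from its gene start.

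The largest vector-only regions mirrored them, with ratios on the same terms and overlapping read intervals of the libraries throughout. COL20A1, a collagen, at chromosome 20 and IL17RE, a receptor for interleukin-17C, at chromosome 3 had 0 LGP2 and 8 vector reads each, at least 2.67-fold lower with LGP2. Then came 13 regions with 0 and 6 reads, of which the first 8 in alphabetical order were APBA2, a neuronal adaptor, ASAP3, a GTPase-activating protein for ARF, CIBAR1, DENND2C, which acts on Rab GTPases, DMD, which encodes dystrophin, MDH1B, OGDH, a subunit of the 2-oxoglutarate dehydrogenase complex, and PLEKHA4. COL20A1 was 1 of only 7 vector-only start-proximal regions on chromosome 20.

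The 4 regions called in both libraries were shallow and even. CLN6, an endoplasmic reticulum protein mutated in a neuronal ceroid lipofuscinosis, and RASAL3, a RAS GTPase-activating protein, had 4 LGP2 and 3 vector reads each. PLAUR, the urokinase receptor, had 5 and 4 reads in a region that overlapped a protein-coding transcript start 13738 bp into the gene. ZNF185, an actin-binding protein, had 3 reads in each library.

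The deepest regions included several with like reads in both libraries. DUSP8, a phosphatase of MAP kinases, had 11 LGP2 and 7 vector reads at chr11:1565351-1565612 and 9 and 4 at chr11:1566117-1566497, and both were among the deepest. The windows of such close regions overlap, so these reads are shared in part, as in 17 neighbouring pairs of members. AP2A2, a subunit of the clathrin adaptor AP-2, had 8 and 5 reads on the same chromosome. MAN2C1, a cytosolic mannosidase, had 6 and 7, PARVG, a focal adhesion protein, 5 and 7, and CCDC57 5 and 6, although all 3 were called only with LGP2. DDRGK1, of the UFM1 conjugation pathway, had 6 and 5 reads, and ENTPD3, an ectonucleotidase, and FERMT1, an integrin activator, had 7 and 4. GYG1, the glycogenin that primes glycogen synthesis, had 1 LGP2 and 10 vector reads and was called with the vector. The last 5 of these 10 were taken in alphabetical order from 14 regions with 11 reads in all, 9 of them called only with LGP2 and 5 only with the vector. At each of these 10 regions the Poisson intervals of the libraries overlapped.

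The megabases with the most start-proximal regions are described here, picked after the values were seen. How far gene density accounts for their number was not tested. The stretch from 52 to 53 Mb of chromosome 3 held 11 of them, 9 called only with LGP2, with 48 LGP2 and 37 vector reads in all. It contains the ITIH1, ITIH3 and ITIH4 gene cluster. ITIH1 had 2 LGP2 and 7 vector reads at 1 region and 6 and 4 at the other, ITIH3 had 6 and 3 and 3 and 2, and the further ITIH4 region had 4 and 1. The stretch from 1 to 2 Mb of chromosome 11 held 9 regions, all called only with LGP2, with 59 LGP2 and 27 vector reads. Of the regions of any annotation, 23 of 30 were called only with LGP2 in the stretch of chromosome 11 and 15 of 21 in that of chromosome 3. These counts include the 9 and 11 start-proximal regions themselves, so they are not a separate comparison. Besides DUSP8 and AP2A2 the stretch of chromosome 11 contains MUC5B, a gel-forming mucin of the airways. It had 10 LGP2 and 1 vector reads at chr11:1223039-1223295, 101 bp into the gene, and 4 and 2 at a further region. Neighbouring genes there were TNNT3, the fast skeletal troponin T, with 5 and 3 reads, and BRSK2, a neuronal kinase, with 5 and 4.

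Most genes had 1 region. Of 1526 genes, 1425 had 1, 97 had 2 and 4 had 3, and 49 of the 101 genes with several regions had regions from both libraries. TAF4, a subunit of the general transcription factor TFIID, had 3 LGP2-only regions on chromosome 20 with 5 and 5, 5 and 4, and 5 and 4 reads. PRKCZ, an atypical protein kinase C, had 3 LGP2-only regions with 4 and 5, 8 and 1, and 6 and 1 reads. C3, the central complement component, had 3 LGP2-only regions with 4 and 3, 6 and 3, and 2 and 2 reads. HOMER2, a postsynaptic scaffold protein, had LGP2-only regions with 5 and 4 and 5 and 1 reads and a vector-only region with 1 and 4. Beyond these and RBPMS2, regions of opposite calls with the most reads lay in TECPR1 (6 and 4, LGP2-only, and 4 and 7, vector-only), LMTK2 (3 and 8, LGP2-only, and 2 and 6, vector-only), ITIH1 and CNKSR1 (5 and 4, and 1 and 6). At LMTK2, a membrane-anchored kinase, the vector library had more reads at both regions, also where the call was made with LGP2.

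Of 20033 RefSeq coding genes, 1517 had a start-proximal region (7.6% [7.2 to 7.9]). The share rose with gene length. It was 3.5% [3.0 to 4.1] in the shortest of 4 groups of like size, 7.0% [6.3 to 7.7] and 8.4% [7.7 to 9.3] in the middle groups and 11.3% [10.5 to 12.3] in the longest. The share with a region within 1 kb of the RefSeq start was instead 1.7% [1.4 to 2.1] in the shortest group and 1.5% [1.2 to 1.9] in the longest. The median length of all coding genes was 24.1 kb, and that of genes with a start-proximal region was 42.8 kb.

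Gene groups spanned a wide range. Collagen and laminin genes, which build the extracellular matrix and basement membranes, had a region in 12 of 56 genes (21.4% [11.6 to 34.4]), with a median gene length of 125 kb. COL9A3 had 4 LGP2 and 5 vector reads and COL2A1, of cartilage, 6 and 2. Motor protein genes followed with 15 of 86 (17.4% [10.1 to 27.1], median length 97.0 kb), among them the kinesin KIF21B (3 and 6) and the myosins MYO18A and MYO18B (6 and 2 each). Ion channel genes had 27 of 165 (16.4% [11.1 to 22.9], 59.6 kb), among them CLCN1, the chloride channel of muscle (3 and 7), and ITPR1, the inositol trisphosphate receptor (3 and 5). At the other end stood histone genes with 1 of 79 (1.3% [0.03 to 6.9]), whose median length was 0.50 kb, and cytosolic ribosomal protein genes with 2 of 87 (2.3% [0.28 to 8.1], 5.06 kb), RPL11 (0 and 4) and RPL5 (0 and 3). Within 1 kb of the RefSeq start, the counts were 2 of 56 collagen and laminin genes, 2 of 86 motor protein genes and 8 of 165 ion channel genes (4.8% [2.1 to 9.3]). The length groups stood at 1.5% to 1.7%, and the interval of the shortest group reached 2.1%. Interleukin and interleukin receptor genes were higher, at 5 of 85 (5.9% [1.9 to 13.2]). They and ion channel genes were the highest of the 11 lists and 16 classes, picked after the values were seen. How far length accounts for these shares was not tested.

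**Figure D5:**
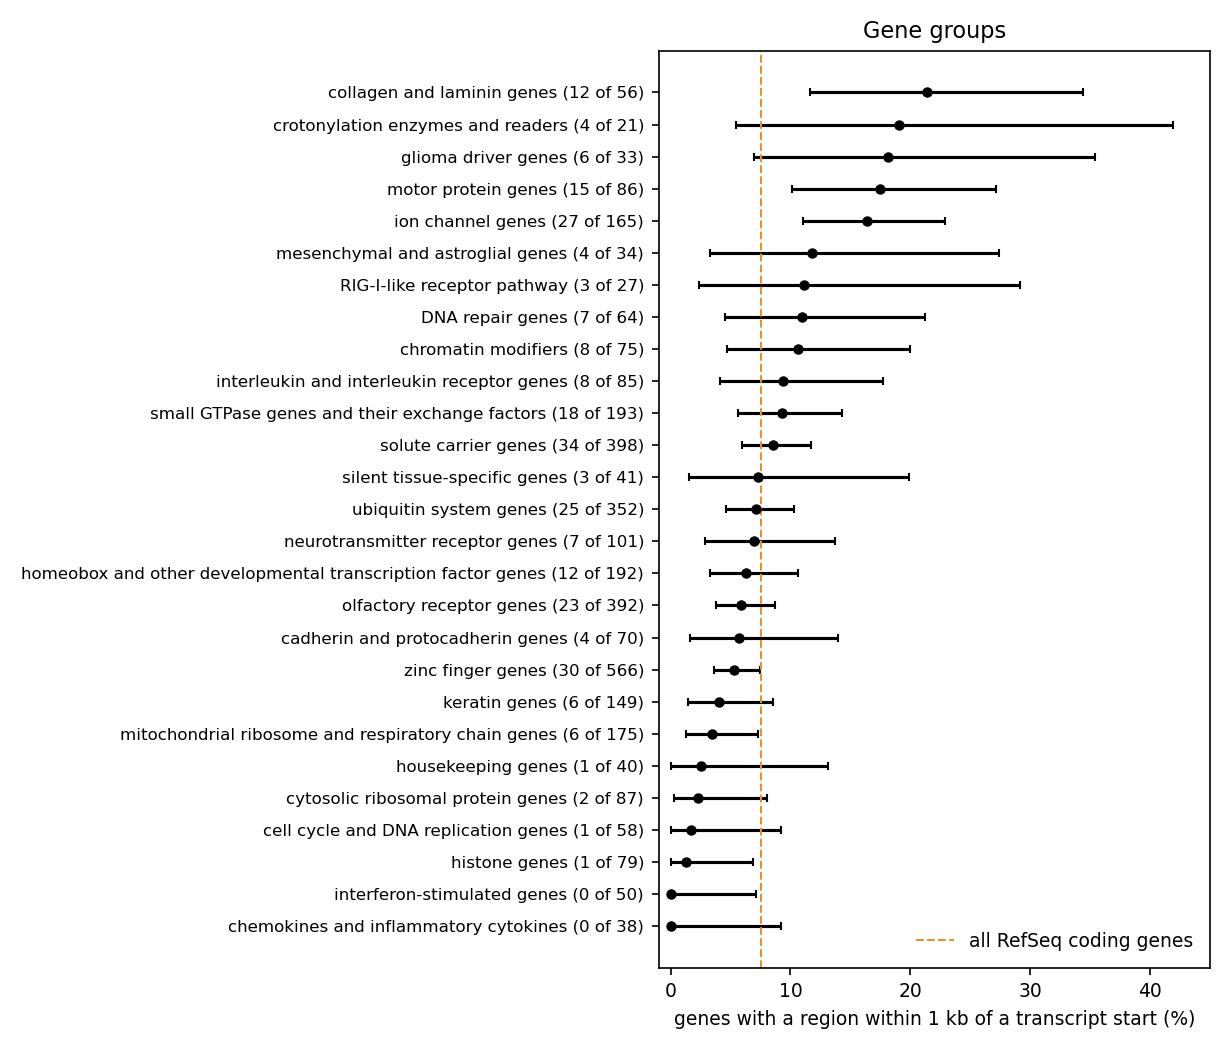
Share of genes with a start-proximal region (horizontal axis, %) for 11 gene lists and 16 symbol classes (vertical axis, genes with a region of all genes in brackets), with 95% Clopper-Pearson intervals. The dashed line is the 7.6% of all RefSeq coding genes, and the intervals of collagen and laminin, motor protein and ion channel genes lie above it.

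Genes active in nearly all cells were not favoured. A region was found at 1 of 40 housekeeping genes (2.5% [0.06 to 13.2]), RPL5 at a retained-intron start. Among 41 genes of other tissues, chosen as unlikely to be active in glioma cells, 3 had one (7.3% [1.5 to 19.9]). These were GCG, the glucagon precursor, with 1 LGP2 and 6 vector reads, TG, thyroglobulin, with 0 and 4, and APOA1, the apolipoprotein of high-density lipoprotein, with 2 and 0. Of 58 cell cycle and replication genes, MCM2, of the replicative helicase, alone had a region, with 4 and 1 reads. Olfactory receptor genes, which are silent outside the nose, had 23 of 392 (5.9% [3.8 to 8.7]), among them OR4D2 (6 and 2), OR4D1 (3 and 6) and OR10S1 (2 and 5). A higher share at widely active genes than at silent ones was thus not detectable, and no expression was measured.

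The antiviral and inflammatory gene groups are set beside the 7.6% of all coding genes with a region and beside the share in genes of like length. RIG-I-like receptors detect viral RNA and signal through MAVS and TBK1 to induce interferons, and LGP2 modulates them. Of 50 interferon-stimulated genes, 0 had a start-proximal region, with a Clopper-Pearson upper bound of 7.1% (6% by the rule of 3 counts). Their median length of 19.2 kb lies in the length group with a share of 7.0% [6.3 to 7.7]. Of 38 chemokine and inflammatory cytokine genes 0 had one, with an upper bound of 9.3% (7.9% by that rule), which includes the background. Their median length of 4.3 kb lies in the shortest length group, with a share of 3.5% [3.0 to 4.1]. How far length accounts for these counts was not tested. Among 27 genes of the receptor pathway, 3 had one (11.1% [2.4 to 29.2]). DHX58 itself had 6 LGP2 [2.20 to 13.1] and 3 vector reads [0.62 to 8.77], 520 bp into the gene, and was called only with the vector. TANK, an adaptor of TBK1, had 3 reads in each library, and TKFC, an inhibitor of the receptor MDA5, 6 and 0. Interleukin and interleukin receptor genes had 8 of 85 (9.4% [4.2 to 17.7]), among them IL37 (6 and 2), IL17D (4 and 3) and IL36G (3 and 4).

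Enzymes and readers of crotonylation had a region at 4 of 21 genes (19.0% [5.4 to 41.9]), all called only with LGP2. The interval includes the 7.6% of all coding genes. It also includes the 8.4% of the length group that holds their median length of 37.7 kb. ACSS2, which makes acyl-CoA from short-chain fatty acids, had 6 LGP2 and 3 vector reads. EP300, an acyltransferase that can use crotonyl-CoA, had 4 and 3, KAT8, of the MYST family of acyltransferases, 4 and 1, and GCDH, which forms crotonyl-CoA from glutaryl-CoA, 3 and 0. None lay within 1 kb of the RefSeq start, and the read intervals of the libraries overlapped at each of the 4. The background of this count is the LGP2-only share of 62.2% over start-proximal regions, or 54.9% over all regions. Both lie within the interval of the 4, 39.8 to 100%.

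Glioma driver genes had regions at 6 of 33 genes, 3 called only with LGP2 and 4 only with the vector. PIK3R1, the regulatory subunit of PI3-kinase, had 3 LGP2 and 8 vector reads at 1 start and 3 and 0 at another. NOTCH1 had 2 and 4 reads and ATRX, a chromatin remodeller, 0 and 2. TACC3, a fusion partner of FGFR3, had 5 and 1, and TERT, the telomerase reverse transcriptase, 3 and 0, with its centre 1166 bp into the gene. Among mesenchymal and astroglial genes, 4 of 34 had regions: OLIG2 (2 and 5), CD44 (4 and 0), FN1 (0 and 4 at a vector-only region, 2 and 0 at an LGP2-only region) and COL4A2 (3 and 0). DNA repair genes had 7 of 64, among them XRCC2 (6 and 1), XPC (5 and 1), FANCA (4 and 3) and RAD51B (3 and 3). Chromatin modifiers had 8 of 75, among them CHD3 (3 and 5), KAT5 (2 and 6, yet called only with LGP2), EZH1 (5 and 0) and HDAC4 (5 and 0). The first value in each pair is the LGP2 library. The shares of genes were 18.2% [7.0 to 35.5] for drivers and 11.8% [3.3 to 27.5] for mesenchymal and astroglial genes. They were 10.9% [4.5 to 21.2] for DNA repair genes and 10.7% [4.7 to 19.9] for chromatin modifiers. All these intervals include the 7.6% of all coding genes. The LGP2-only share of driver regions, 42.9% [9.9 to 81.6], has an interval that includes the 62.2% of start-proximal regions.

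The larger families spread over both libraries. Zinc finger genes had 30 of 566 (5.3% [3.6 to 7.5]), 18 of the regions called only with LGP2 and 11 only with the vector, with ZNF223 at 6 and 3 reads, ZNF502 at 5 and 4 and ZNF333 at 1 and 6. Solute carrier genes had 34 of 398 (8.5% [6.0 to 11.7]), 23 and 12 of their regions, among them SLCO3A1 (7 and 3) and SLC19A1, the folate carrier (3 and 5). Small GTPase genes and their exchange factors had 18 of 193, with 16 LGP2-only and 6 vector-only regions, and ubiquitin system genes had 25 of 352, with 12 and 15. Developmental transcription factor genes had 12 of 192, among them TBX21, of T helper cells (1 and 7), and PAX1 (3 and 4). Mitochondrial ribosome and respiratory chain genes had 6 of 175 (3.4% [1.3 to 7.3]), keratin genes 6 of 149, neurotransmitter receptor genes 7 of 101 and cadherin and protocadherin genes 4 of 70. The 7.6% of all coding genes lay above the zinc finger and mitochondrial intervals and within those of the other families here. The part of gene length was not tested. For zinc finger, solute carrier, small GTPase and ubiquitin system regions, the interval of the LGP2-only share included the 62.2% of start-proximal regions.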

How the data were processed

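ChIP-seq values of 2 libraries (1 per condition) came from 1 deposited table. The authors deposited, per region and library, a signal value that is a read density after their normalization, with the nearest transcript and the distance to its start. They also deposited a log2 ratio, a mean level and a p-value, which are the authors' own comparison, and these columns were not used. Aligner, caller and normalization tool: not given in the sources used here. Labels name the build mm10, but the positions were human: 1620 of 1625 matched transcripts overlapped the RefSeq gene of their symbol on GRCh38.p14. Positions are printed as the table gives them. The number of columns of unknown sample was 0, with the density columns taken as ChIP.

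The density product gave whole reads plus 1 per library, and the density ratio gave their split after a straight line in the mean log2 level, computed here from the densities (intercept 0.105, slope 0.0452, tolerance 0.001). The recovery was tested on simulated data. The depth behind each region is these reads, and how deeply each library was sequenced is unknown. Without molecular identifiers, reads need not be independent molecules, so intervals cover counting error only. Shares carry exact Clopper-Pearson and reads exact Poisson 95% intervals, in SciPy 1.17.1 and pandas 2.3.3 (Python 3.11.15). With 1 library per condition no test between conditions was made, and no count model was fitted.

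Named regions were the 10 with the largest ratio of reads plus 1 either way, from regions that 1 library called, all called in both, the 10 with the most reads, up to 4 with the most reads per gene list or symbol class (all for driver, receptor pathway and crotonylation genes), genes with 3 regions and up to 6 genes with regions from both libraries. The members and the 11 lists, 16 classes and 8 motifs were chosen with earlier results of these data known. The pattern for ribosomal proteins was narrowed after the data were seen, to leave out the RPS6K kinases. The values of 1 region that the rule names are not reported here.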

Additional observations from a re-analysis of the deposited data

How the results depend on the processing

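No paired analysis was possible because each condition had 1 ChIP library, and leaving out a replicate was not possible either. With at least 5 reads in the calling library, the LGP2-only share of start-proximal regions was 57.0%, the vector reads at LGP2-only regions 2.01, against 1.82 at the others with overlapping intervals, and the LGP2 reads at vector-only regions 1.36, and start-proximal regions made up 7.45% of the LGP2-only and 5.21% of the vector-only calls. The other regions at that limit had an LGP2-only share of 47.4% [46.2 to 48.6]. With the RefSeq gene start in place of the annotated start, vector reads at LGP2-only regions were 1.67. With 5 reads added to each library in place of 1, 69 regions were at least 2-fold higher and 17 at least 2-fold lower. Of all regions, 954 and 443 were, or 3.26% and 1.51%. Only 49 start-proximal regions had at least 10 reads over both libraries. Of these 49, 12 were at least 2-fold higher and 5 at least 2-fold lower. The count over all regions at that depth is not given. By centre, 29.2% of regions lay within 250 bp of the transcript start, and by nearest edge 23.6% lay within 1 kb of the RefSeq start. Without normalization, or with the median ratio of all regions at 0, the counts past 2-fold were 514 and 450 (of all regions, 8647 and 9377). Alternatives chosen after seeing the data were the floor of 3 reads for a count of 0, which left 342 and 169 regions past 2-fold, and the start of the RefSeq promoter table, which put 20.4% of 1305 regions within 1 kb. Leaving out chromosome 20 gave an LGP2-only share of 61.5%, and 1 region per gene gave 62.1%.

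A median of 5 reads per region, with no replicate and no analysed input, cannot tell a condition from a library, and the cause of the changes above was not tested.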
